A study of Homo sapiens with 9 samples.

Results

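The length of the guide RNA was the one labelled difference between the libraries compared here. Cells of a K-562 line whose genotype is given as B2M tdTomato had received by nucleofection the mRNA of the same tripartite ETR, a fusion built on catalytically inactive Cas9 (dCas9), together with either a 16-nt or a full-length gRNA to the B2M promoter. The comparison took all libraries labelled with either guide, 3 libraries for each guide and 6 of the 9 in the series, and set them against each other by replicate number, library 1 with library 1 and so on. The other 3 libraries came from mock-treated cells of the same B2M tdTomato line. They gave the level of B2M in cells without the repressor. They also entered the main test, which used all 9 libraries for the gene filter, the scaling and the estimate of spread. The labels do not say what the mock nucleofection contained. The sources used here do not give the time from nucleofection to harvest, any sorting of the cells, or whether poly-A selection or ribosomal RNA depletion was used. The gene table held 59653 genes, of which 30729 had at least 1 count in a library with the ETR and 15213 had enough counts to be tested.

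K-562 is an established human cell line from chronic myeloid leukaemia in blast crisis, with erythroid and megakaryocytic features and the BCR-ABL1 fusion. B2M encodes beta-2-microglobulin, the light chain that MHC class I heavy chains need for folding and for display at the cell surface. A dCas9 fusion is brought to DNA by the base pairing of its gRNA, and effector domains fused to dCas9 can silence the promoter it is brought to. Guides shortened at their 5′ end still let Cas9 bind DNA while cutting falls off, which is why short guides are used to combine binding and cutting functions in a single Cas9 protein. The labels name neither the effector domains of the tripartite ETR nor the bases of either gRNA.

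The gene that both guides were directed at starts at position 44711487 of chromosome 15 in the deposited annotation (GRCh38) and ends at 44721256, on the plus strand. The bases just before that start are shown because the ETR was aimed at this promoter; they are chr15:44711267-44711486, plus strand, from RefSeq on GRCh38.p14, 5′ to 3′, with each CpG dinucleotide in capitals.
B2M promoter: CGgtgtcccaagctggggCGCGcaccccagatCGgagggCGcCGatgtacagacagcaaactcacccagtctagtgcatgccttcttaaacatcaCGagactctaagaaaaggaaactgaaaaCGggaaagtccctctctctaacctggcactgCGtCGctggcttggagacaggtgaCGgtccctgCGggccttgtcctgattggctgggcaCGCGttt
These 220 bases held 14 CpG dinucleotides, the letters CG, which read the same on both strands. Of 35116 RefSeq promoter windows of this length, 39.8% held as many, and the median was 9. The first bases of PATL2, a gene on the opposite strand whose annotated span ends 171 bases before B2M, lie within the stretch shown.

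With the 16-nt gRNA more B2M transcript remained than with the full-length gRNA, in each of the 3 pairs. The libraries with the 16-nt gRNA held 462, 714 and 423 B2M counts, which came to between 16.4 and 22.3 CPM (counts scaled to library size, with TMM factors). Those with the full-length gRNA held 309, 268 and 216 counts, or 10.8, 9.21 and 9.09 CPM. The lowest library with the 16-nt gRNA lay above the highest with the full-length gRNA, so the groups did not overlap. B2M averaged 19.2 ± 2.96 CPM (SD, n = 3) with the 16-nt gRNA, 9.71 ± 0.977 CPM (SD, n = 3) with the full-length gRNA and 139 ± 7.11 CPM (SD, n = 3) in mock-treated cells.

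The ratio of the 16-nt to the full-length library was 1.75 in pair 1 (95% interval 1.51 to 2.03), 2.42 in pair 2 (2.10 to 2.80) and 1.80 in pair 3 (1.53 to 2.14). These intervals are exact (Clopper-Pearson) and cover counting error only. Over the pairs the ratio averaged 1.99 ± 0.372 (SD, n = 3). Pair 2 stood above the other pairs, and its interval overlapped that of pair 3 only at the edge. The edgeR quasi-likelihood test on the 9 libraries gave a log2 fold change of 0.99 (SE 0.12), a fold of 1.98 (95% interval 1.67 to 2.35), with a Benjamini-Hochberg adjusted p of 0.00580. With the replicate number as a block in the 6 libraries with the ETR, edgeR gave 0.99 (SE 0.10), a fold of 1.98 (1.70 to 2.31), adjusted p 0.00205.

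The call rested on how the spread was estimated and on which libraries were in the fit. When edgeR was run on the 6 libraries alone with no block, the log2 fold change was also 0.99 but the adjusted p was 0.130. The call was likewise lost without the second full-length library (0.95, adjusted p 0.123, edgeR on the remaining 8) and without both libraries of pair 2 (0.82, adjusted p 0.509). An exact two-sided permutation test of the 3 against 3 log2 CPM values gave p = 0.10 for a difference of 0.97, the smallest p that this design allows. The labels do not say that the replicates were separate cultures, so these p-values measure the spread between the libraries, which may be technical.

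**Figure D1:**
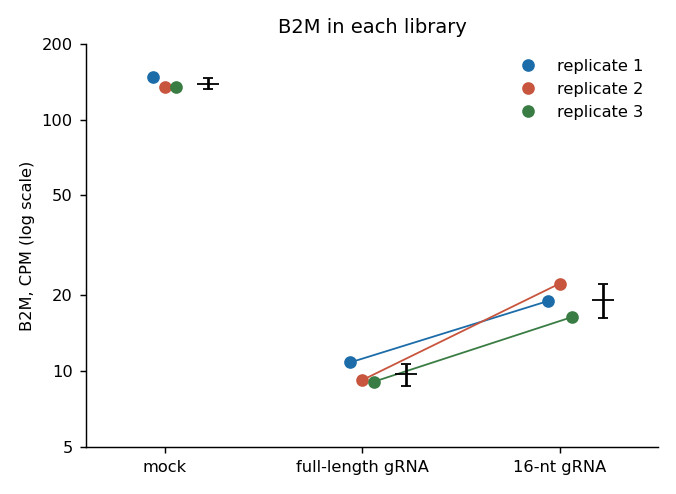
B2M in CPM (log axis) in each of the 9 libraries, by group, with lines joining ETR libraries of the same replicate number and black bars for the mean ± SD of each group. All 3 libraries with the 16-nt gRNA (16.4 to 22.3 CPM) lie above all 3 with the full-length gRNA (9.09 to 10.8 CPM), and both groups lie well below the mock-treated libraries.

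Read against mock-treated cells, both guides left a small part of the B2M transcript. The 16-nt libraries held 13.7%, 16.0% and 11.8% of the mean mock level, and the full-length libraries 7.79%, 6.62% and 6.53%. Within pairs the 16-nt libraries kept 5.87, 9.41 and 5.25 percentage points more, a mean of 6.84 ± 2.24 (SD, n = 3). Set against the mock library of the same number instead, the shares were 12.9%, 16.6% and 12.1% with the 16-nt gRNA and 7.36%, 6.84% and 6.71% with the full-length gRNA. On the log2 scale B2M fell by 2.85 with the 16-nt gRNA and fell by 3.84 with the full-length gRNA relative to mock (edgeR, 9 libraries, adjusted p 1.08e-09 and 3.50e-11); both differences use the same mock libraries. In bulk RNA, more cells that kept B2M and more B2M transcript in each cell cannot be told apart.

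The 6 libraries with the ETR held 23763529 to 30730369 counts and the mock libraries 25436995 to 33260228. Of 14 genes expected to be expressed in K-562, all were detected in each of the 6. Counts were at least 4916 for the erythroid factor GATA1 and at least 5500 for KLF1. The lowest were the alpha globin genes HBA1, with 32 to 52 counts, and HBA2, with 90 to 251. The T-cell gene CD3E, the B-cell gene MS4A1, the macrophage receptor gene CSF1R, the collagen gene COL1A2 and the endothelial gene PECAM1 had 0 to 3 counts. Some genes listed as near absent in K-562 were clearly present: the epithelial gene EPCAM had 810 to 1260 counts and the collagen gene COL1A1 61 to 89. CD3D, CD79A, CD14 and CDH1 had 2 to 19 counts. The 7SL RNA gene RN7SL1 alone took 3.36% to 6.66% of the counts of these libraries.

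B2M was the single gene that passed the test among the 15213 tested, 0.00657% of them, and none was lower with the 16-nt gRNA. The gene with the next smallest p had an adjusted p of 0.9999 (edgeR). At an unadjusted p under 0.05 edgeR had 141 genes, 0.927% of those tested, 66 higher (0.434%) and 75 lower (0.493%) with the 16-nt gRNA. With the replicate block, B2M was again the single call, 0.00670% of 14916 genes tested, and the next gene was RPS12 at an adjusted p of 0.419. That fit had 731 genes at an unadjusted p under 0.05, or 4.90%, with 409 higher (2.74%) and 322 lower (2.16%). If no gene differed and p-values were evenly spread, 5% would fall under 0.05. The share without the block was far below this, and that with the block was near it. DESeq2, run on every gene with a count in any of the 9 libraries, called B2M alone as well, 0.00298% of 33525 genes. It had 94 genes (0.280%) at an unadjusted p under 0.05. That share is not comparable with the edgeR shares, which left out genes with low counts.

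Fold changes over all genes were centred near 0. The median log2 fold change of the tested genes was 0.0035, and 51.6% of them were above 0. The 16-nt and full-length libraries did not overlap for 849 genes (5.58%), 426 higher (2.80%) and 423 lower (2.78%) with the 16-nt gRNA. The sign of the log2 ratio was the same in all 3 pairs for 2005 genes higher (13.2%) and 1847 lower (12.1%). Both counts were nearly even between the directions.

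**Figure D2:**
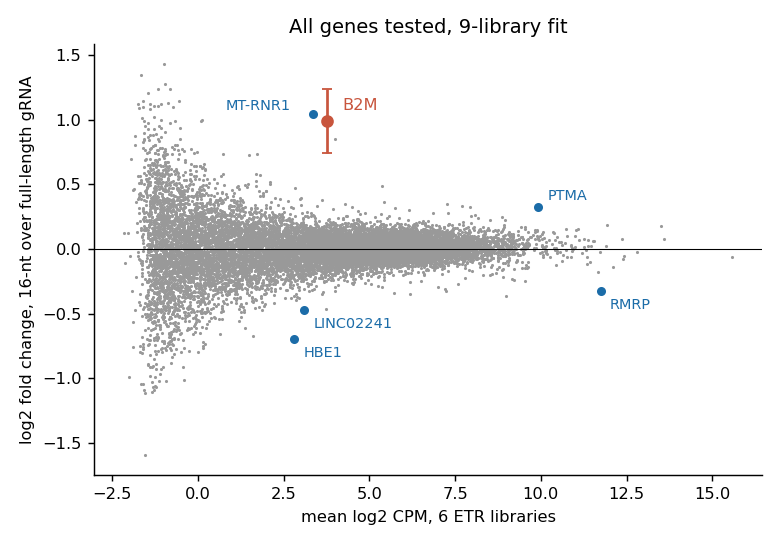
Log2 fold change (16-nt over full-length gRNA, edgeR on 9 libraries) against mean log2 CPM of the 6 libraries with the ETR, 1 point a gene tested, with a bar for the 95% interval of B2M. B2M, at 0.99, is the gene that passed the test, while MT-RNR1, at 1.05 with an SE of 0.73, did not pass.

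How small a difference these libraries could have shown depended on expression level. Among the 11707 genes with a mean of at least 2 CPM (log2 CPM of at least 1), called well expressed here, the median SE of the log2 fold change was 0.106 without the block and 0.073 with it. The 95% interval lay within a 1.5-fold difference in either direction for 93.2% of these genes without the block and 97.6% with it, and within a 2-fold difference for 99.6% and 99.9%. Below 1 CPM the intervals were wide: of 2346 such genes, 29.9% had an interval within 2-fold without the block and 55.1% with it.

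The 3 pairs were not equally alike. In pair 1, 206 of the well-expressed genes (1.76%) differed by over 1.5-fold, in pair 2 110 (0.940%) and in pair 3 12 (0.103%). The SD of the log2 ratio over these genes was 0.22, 0.17 and 0.12 in the same order. B2M was the 50th highest ratio of 11707 in pair 1, the 1st in pair 2 and the 2nd in pair 3, where LIPA, the lysosomal acid lipase gene, came first. It was the 1 gene above 1.5-fold in all 3 pairs (0.00854%), and 0 genes were below it in all 3. Its lowest pair ratio was 0.81 on the log2 scale with a prior count of 2. The next gene of one sign throughout, the pseudogene PDIA3P1, reached 0.51 in its smallest ratio, in the lower direction.

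**Figure D3:**
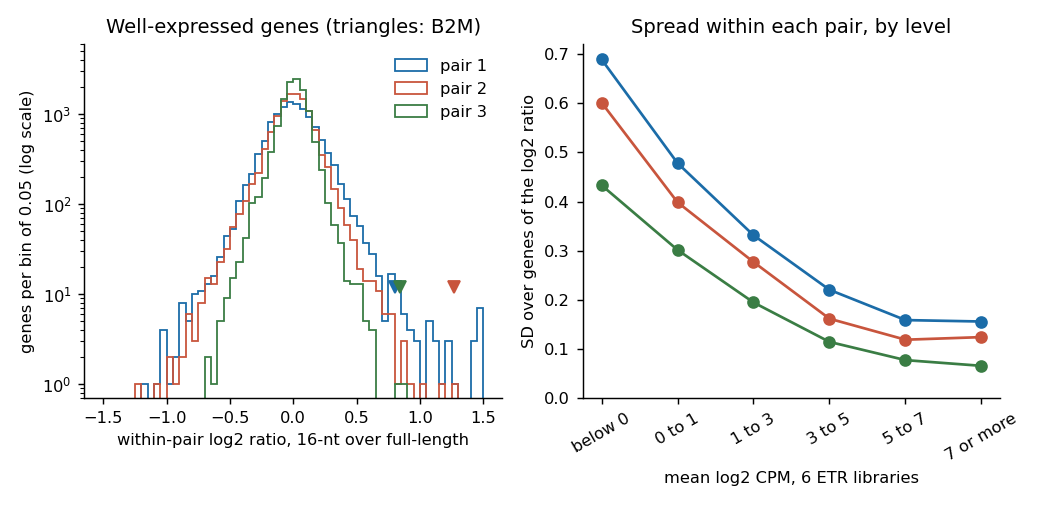
Left, number of well-expressed genes (log axis) by within-pair log2 ratio of 16-nt over full-length gRNA, 1 line a pair, with ratios beyond the axis counted in the end bins and triangles at B2M. Right, SD of that ratio over genes by expression level; pair 1 has the widest spread at each level and pair 3 the narrowest.

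Genes past 1.5-fold in at least 2 pairs were few. There were 7 with a higher value with the 16-nt gRNA (0.0598%), B2M among them, and 5 with a lower one (0.0427%): PDIA3P1, H3P6, ZBTB20, CCZ1B and HBE1. Another 8 (0.0683%) were past 1.5-fold in opposite directions in different pairs, and most of these were small noncoding RNAs. The spliceosomal RNA gene RNU4-2 had 288, 193 and 233 counts with the 16-nt gRNA and 110, 351 and 242 with the full-length gRNA. SNORD3A, a copy of the U3 small nucleolar RNA that takes part in ribosomal RNA processing, had 3209, 2054 and 3316 against 1220, 2940 and 3569. Both had more counts with the 16-nt gRNA in pair 1 and fewer in pairs 2 and 3.

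Among well-expressed genes with the same sign in all 3 pairs, those with the smallest p after B2M were of modest size, and none passed the test. PTMA, which encodes the abundant nuclear protein prothymosin alpha, had 1262, 976 and 1041 CPM with the 16-nt gRNA and 834, 836 and 949 CPM with the full-length gRNA. These groups did not overlap, and the log2 fold change was 0.32 (SE 0.13), or 0.21 without the first 16-nt library. MAGOH, a core part of the exon junction complex, had 20.4 to 23.5 CPM against 16.8 to 17.7 CPM, again without overlap, and a log2 fold change of 0.35 (SE 0.14). With the block the adjusted p of edgeR was 0.973 for PTMA and 0.810 for MAGOH. The others on the higher side were TCAF1P1 (0.50), AC079949.5 (0.45), CCDC126 (0.44), AC131206.1 (0.58) and the U3 entry (0.73), which sums copies on several chromosomes and is uncertain.

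On the lower side HBE1 had the largest fold change of the 8. HBE1, the embryonic epsilon globin gene, had 112, 195 and 148 counts with the 16-nt gRNA and 246, 321 and 166 with the full-length gRNA. Its pair ratios were -0.90, -0.85 and -0.28 on the log2 scale, and its log2 fold change was -0.70 (SE 0.21, adjusted p 0.9999; 0.419 with the block, edgeR). The groups did not overlap in CPM, but HBE1 has a deposited span of 5268345 to 5505652 on chromosome 11 that covers other genes, so its counts are uncertain. LINC02241, a long noncoding RNA, had 189, 214 and 187 counts against 311, 284 and 221, and a log2 fold change of -0.47 (SE 0.13). PDIA3P1 had 53, 73 and 65 counts against 112, 105 and 86, and -0.68 (SE 0.24); PDIA3, its parent gene, which encodes a disulfide isomerase of MHC class I peptide loading, was at 0.06 (SE 0.09), and reads shared by the copy and its parent are uncertain. The remaining 5 were ACE, the angiotensin-converting enzyme gene (-0.38), the zinc finger gene ZBTB20 (-0.55), C11orf1 (-0.37), the antisense RNA UGDH-AS1 (-0.47) and GABRG3, which encodes a GABA-A receptor subunit (-0.33).

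None of the genes whose proteins work with beta-2-microglobulin passed the test. Of 14 genes for MHC class I heavy chains and other B2M partners, 6 were tested and 0 passed, and of 16 genes for peptide loading and the immunoproteasome 12 were tested and 0 passed. Their median log2 fold changes were -0.033 and 0.062, beside 0.0035 for all genes. HLA-C, a classical heavy chain, had 277, 345 and 278 counts with the 16-nt gRNA and 325, 319 and 260 with the full-length gRNA, a log2 fold change of -0.016 (SE 0.11). The groups overlapped, and the 95% interval ran from -0.24 to 0.21. HLA-E, the heavy chain seen by NKG2A on natural killer cells, had 72.0, 66.3 and 67.5 CPM against 65.7, 63.8 and 74.4 CPM, a log2 fold change of 0.013 (SE 0.083). HLA-B was at -0.050 (SE 0.23) from 72 to 93 counts a library, and its deposited span overlaps that of HLA-C. Among the list's 6 tested members the smallest p was that of FCGRT, the neonatal Fc receptor (-0.14, SE 0.12).

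Among the loading factors, TAP1, a subunit of the peptide transporter, had 30.1, 30.1 and 30.2 CPM against 32.5, 30.6 and 29.4 CPM (-0.034, SE 0.093). TAPBP, or tapasin, which ties the transporter to the heavy chain, was at 0.066 (SE 0.11). Calreticulin (CALR) was at 0.096 (SE 0.095). CANX, the chaperone calnexin that holds free heavy chains, had 2565, 2199 and 2142 CPM with the 16-nt gRNA and 2287, 1841 and 2068 CPM with the full-length gRNA. Each pair was higher, by 0.17, 0.26 and 0.05 on the log2 scale, yet the groups overlapped, and the log2 fold change of 0.16 (SE 0.10) did not pass (adjusted p 0.9999; 0.973 with the block, edgeR). It was 0.071 without the first 16-nt library and 0.080 without the second full-length library. Ligands of natural killer cell receptors had 11 tested members, 0 called and a median of -0.019. Among them CLEC2B had the smallest p (-0.47, SE 0.39).

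Genes of DNA methylation and of KRAB-dependent repression, the host machinery that silencing fusions commonly draw on, had 28 tested members, 0 called and a median of 0.021. DNMT1, the maintenance methyltransferase, had 337, 339 and 327 CPM against 320, 341 and 328 CPM, a log2 fold change of 0.02 (SE 0.07). For DNMT3A, a de novo methyltransferase, it was 0.09 (SE 0.09), and for the KRAB cofactor TRIM28 -0.03 (SE 0.13). The methyl-CpG reader gene ZBTB38 had the smallest p of the list, at -0.27 (SE 0.14), with 145, 182 and 149 counts against 196, 228 and 150. Values for an effector carried by the ETR itself, if it shares sequence with one of these genes, cannot be told apart from the cell's own transcript.

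Across all 29 gene lists, 698 genes in all, 560 were tested and 0 passed in either fit. At an unadjusted p under 0.05 there were 4 list members without the block (0.714% of those tested, beside 0.927% of all genes) and 57 with it (10.2%, beside 4.90% of all genes). Among the 1552 genes with a log2 CPM of at least 7 the share in the blocked fit was 7.28%. The lists with the most such members were cytosolic ribosomal proteins, with 16 of 79 (4 higher, 12 lower), and replication-dependent histones, with 10 of 31 (3 higher, 7 lower).

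RPS12, a small-subunit ribosomal protein gene, had 457, 403 and 482 CPM with the 16-nt gRNA and 610, 573 and 547 CPM with the full-length gRNA. These values did not overlap, and its log2 fold change was -0.37 (SE 0.17; SE 0.07 with the block). RPL29, the member with the smallest p without the block, was at -0.22 (SE 0.10). The median of the 79 ribosomal protein genes was -0.0091, with 38 above 0 and 41 below. Of the histone genes, H4C5 was at 0.33 (SE 0.15) and H2AC17 at -0.48 with the block (SE 0.10), while the list's median was -0.057. Histone genes and ribosomal protein genes have near-identical copies, so the split of their reads between copies is uncertain.

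Stress programmes gave small values. Of 25 tested heat shock and chaperonin genes, 20 had a log2 fold change above 0, beside 51.6% of all genes, and the median was 0.060. With the block 5 had an unadjusted p under 0.05 (edgeR), all on the higher side, where 2.74% of all genes lay. Most of the 5 were abundant. Among all genes with a log2 CPM of at least 7, the share in the blocked fit was 7.28% over both directions. These 5 included HSPA1A and HSPA1B, which are near-identical copies. HSPA1A, an inducible HSP70 gene with a near-identical neighbouring copy, had 133, 194 and 193 CPM against 126, 131 and 173 CPM, which overlapped, and a log2 fold change of 0.28 (SE 0.15). Its pair ratios were 0.08, 0.57 and 0.16, and its log2 fold change was 0.12 without both libraries of pair 2. Of 25 immediate early genes 20 were also above 0, with a median of 0.064; IER5 was at 0.20 (SE 0.10). The unfolded protein and integrated stress response list (32 tested) had a median of 0.026 and HERPUD1, an endoplasmic reticulum stress gene, at -0.14 (SE 0.08). The p53 target and DNA damage list (22 tested) had a median of 0.024 and DDB2, which takes part in nucleotide excision repair, at -0.14 (SE 0.10). The interferon and RNA sensing list (16 tested) had a median of -0.011 with ISG20 at 0.42 (SE 0.28), and the NF-kB list (14 tested) a median of -0.024 with the inhibitor gene NFKBIA at -0.19 (SE 0.09). None of these genes passed.

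Lineage genes of K-562 were near 0 as lists, with more spread between pairs. Globin and heme genes (19 tested) had a median of -0.046, and the median was 0.00088, -0.16 and 0.064 in pairs 1, 2 and 3. The fetal globin gene HBG1 had pair ratios of 0.17, -0.74 and 0.21, and the alpha globin gene HBA2 1.43, -0.17 and 0.48, so neither kept a direction. Red cell membrane and erythroid factor genes (24 tested) had a median of -0.0057, with GYPB, a glycophorin gene with close paralogs, at 0.14 (SE 0.11). The median was -0.036 for iron handling genes (16 tested), in which PCBP2, an iron chaperone, was at -0.27 (SE 0.13), and -0.0018 for platelet lineage genes (5 tested), in which the transcription factor RUNX1 was at 0.21 (SE 0.12). For BCR-ABL1 and STAT5 signalling (21 tested) it was 0.016, with the survival gene BCL2L1 at 0.080 (SE 0.081).

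Growth and metabolic lists lay as close to 0. Medians were 0.0095 for DNA replication (32 tested), -0.0034 for mitosis (26 tested), -0.00061 for glycolysis and hypoxia (34 tested) and -0.0091 for cholesterol synthesis (28 tested). Their members with the smallest p were the GINS complex gene GINS1 (0.14, SE 0.08), the kinetochore gene CENPF (0.11, SE 0.08), the glycolytic aldolase gene ALDOA (0.22, SE 0.15) and PMVK, phosphomevalonate kinase (0.22, SE 0.12). Imprinted genes (13 tested) had a median of -0.010 with PLAGL1 at -0.30 (SE 0.15), and cancer-testis genes (12 tested) 0.033 with MAGEA12 at -0.12 (SE 0.09). None of these was called.

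None of the 15 mitochondrially encoded genes passed the test, and their ratios differed between pairs. In pair 1 14 of them were above 0, in pair 2 3 and in pair 3 13. The median was 0.41 in pair 1, -0.40 in pair 2 and 0.12 in pair 3, and -0.0090 over the 9-library fit. MT-RNR1, the small mitochondrial ribosomal RNA, had 789, 285 and 341 counts with the 16-nt gRNA and 58, 229 and 397 with the full-length gRNA. Its pair ratios were 3.95, 0.18 and -0.34, and pair 1 held both the highest and the lowest of the 6 libraries. The mitochondrial oxidase gene MT-CO1 was at -0.25 (SE 0.16), but at -0.025 without the second full-length library and -0.41 without the third. Without a filter on low counts edgeR also called MT-RNR1, MT-RNR2 and MT-ATP8 as higher; in these, pair 1 held most of the difference, with ratios of 3.95, 3.42 and 1.53. Among 5 tested RNA polymerase III noncoding RNAs the medians were 0.23, -0.31 and -0.16 by pair, and RMRP, the RNA of RNase MRP, was lower in each (-0.38, -0.48 and -0.17; log2 fold change -0.33, SE 0.22).

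Markers of other cell types did not pass either. Of 12 lymphocyte, 10 monocyte and granulocyte, 11 fibroblast and endothelial and 10 epithelial markers, 2, 1, 3 and 6 were tested. The T-cell gene CD3D had 5, 13 and 8 counts against 14, 19 and 11 (-0.77, SE 0.42), the granulocyte receptor gene CSF3R was at 0.17 (SE 0.40), fibronectin (FN1) at -0.075 (SE 0.10) and keratin 18 (KRT18) at -0.068 (SE 0.10), while 4 of the 6 tested epithelial markers were above 0. Medians over the tested markers were -0.24, 0.17, -0.055 and 0.049 in that order.

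No other gene around B2M passed the test. Within 1 Mb of B2M the table held 82 other genes, of which 22 were tested and 0 passed; 13 were above 0 and the median log2 fold change was 0.021. PATL2, which starts within the stretch shown above and runs the other way, had 10, 10 and 18 counts with the 16-nt gRNA and 8, 12 and 25 with the full-length gRNA. At these counts its log2 fold change of -0.27 had an SE of 0.58 and a 95% interval of -1.52 to 0.97. With the block it was -0.27 (SE 0.35), with an interval of -1.02 to 0.49. Both intervals hold a fall as large as the B2M change. A rise as large as that of B2M (0.99) lies outside them, only just so without the block. TRIM69, the next gene downstream, a ubiquitin ligase gene 10.1 kb beyond the end of B2M, had 344, 382 and 297 counts against 412, 373 and 317 (-0.11, SE 0.12). SPG11, the spastic paraplegia gene upstream, was at -0.065 (SE 0.09).

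The neighbours with the smallest p were EIF3J, a translation initiation factor gene, and SERF2. EIF3J had 91.5, 88.9 and 74.6 CPM against 85.6, 73.3 and 68.5 CPM, which overlapped, and a log2 fold change of 0.16 (SE 0.11). SERF2 had 427, 345 and 427 CPM against 265, 338 and 422 CPM, and 0.23 (SE 0.17), with pair 1 at 0.69 and pairs 2 and 3 at 0.03 and 0.02. SERF2 overlaps HYPK in the annotation, so its reads are uncertain. Windows of 500 kb (11 tested) and 2 Mb (38 tested) also held 0 called genes.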

How the data were processed

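RNA sequencing counts of 9 libraries were used, 3 in each of 3 groups. Per the labels' protocols, the NEBNext Ultra RNA kit was applied to total RNA. Per the submitters' processing notes, reads were aligned and counted on GRCh38 with tools that include STAR 2.7.6a and featureCounts of Subread 2.0.1, with Trim Galore 0.6.6 for trimming. The authors deposited raw read counts per gene; for the annotation release, strand setting and handling of reads with several matches nothing is given in the sources used here. Columns without a label numbered 0.

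The test was edgeR 4.0.16 (R 4.3.3), quasi-likelihood, TMM scaling, genes kept by filterByExpr with a minimum count of 10, 9 libraries with group as the term, contrast 16-nt minus full-length gRNA, and Benjamini-Hochberg adjustment over all genes tested (threshold 0.05). CPM are TMM-scaled; within-pair ratios over genes used a prior count of 2. DESeq2 1.42.0, limma 3.58.1 (voom), other scalings and filters, libraries left out and the replicate number as a block were alternatives. The tests were checked on simulated data. Permutation and counting intervals used scipy 1.17.1.

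The labels number the replicates but do not say what a number marks. Over 11707 well-expressed genes, deviations from the group mean of same-numbered 16-nt and full-length libraries correlated at 0.46, 0.27 and 0.68. Those of different numbers correlated at -0.61 to 0.078. Taking deviations from each group's own mean pushes the latter down when the former are positive, so they are no separate evidence. On the same-number values the numbers were taken to pair the libraries. Every pair of libraries within a group differed by more than counting noise.

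Named genes were B2M, the 8 on each side with the smallest p among well-expressed genes of one sign in all pairs, the member with the smallest p of each list, the MHC class I partners and the 2 genes within 1 Mb with the smallest p; other genes (RPS12, HBG1, HBA2, DNMT1, MT-RNR1 and the like) were picked with values in view. The comparison and the gene lists were chosen with earlier results of these data known. No test over a list was run. Some marker and partner genes are not reported here.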

Additional observations from a re-analysis of the deposited data

How the results depend on the processing

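The B2M log2 fold change stayed between 0.82 and 1.09 under every alternative run. Its call was lost in 3: the 6 libraries with the ETR and no block (0.99, adjusted p 0.130), without the second full-length library (0.95, adjusted p 0.123) and without both libraries of pair 2 (0.82, adjusted p 0.509); edgeR then called 0 genes in either direction. With one library left out at a time the B2M value ranged from 0.86 to 1.09 and the number of genes higher from 0 to 1, and the number at an unadjusted p under 0.05 from 81 to 706, the latter without full-length library 3. With no low-count filter, 4 genes passed as higher. With the replicate block the calls were as without it. The number at an unadjusted p under 0.05 went from 141 (0.927%) to 731 (4.90%), beside 5% for evenly spread p-values. Leaving a pair out of the blocked fit, chosen after seeing the data, leaves 1 residual degree of freedom among samples: edgeR then called 4 genes higher and 26 lower without pair 1, 17 and 0 without pair 2, and 44 and 21 without pair 3. Genes near 0 changed sign: HLA-E (-0.017 without full-length library 1, -0.030 without 2, -0.023 without 16-nt library 1, -0.049 and -0.016 without pairs 1 and 2; 0.082 without full-length library 3, 0.094 without pair 3), HLA-B (0.16 without full-length library 3, 0.026 without 16-nt library 2, 0.19 without pair 3; -0.18 without full-length library 2, -0.23 without pair 1), TAP1 (0.00078 without full-length library 1, 0.0056 without pair 1; -0.067 without full-length library 3, -0.069 without pair 3), TAPBP (-0.034 without 16-nt library 1, -0.031 without pair 1; 0.12 without 16-nt library 3, 0.13 without pair 2), FN1 (0.018 without full-length library 3, 0.0060 without 16-nt library 1, 0.0070 without pair 1; -0.17 without full-length library 2, -0.18 without pair 2) and CSF3R (-0.0052 without full-length library 1, -0.12 without pair 1; 0.37 without 16-nt library 2 or pair 2). Of the 51 named genes other than B2M, none of them called, 29 moved by over 1.5 times when 1 library was left out. Without 16-nt library 1, U3 went from 0.73 to 0.39, H4C5 from 0.33 to 0.15, ALDOA from 0.22 to 0.10 and HSPA1A from 0.28 to 0.43; RMRP went from -0.33 to -0.16 without 16-nt library 2, FCGRT from -0.14 to -0.016 without full-length library 3 and SERF2 from 0.23 to 0.067 without full-length library 1. Without both libraries of pair 2 HSPA1A went from 0.28 to 0.12. The cause of these changes was not tested. Depth limits the genes below 1 CPM, PATL2 among them.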
